A study of Homo sapiens with 346 samples.

Results

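AP-1 is a transcription factor built from pairs of bZIP proteins, which hold together through a leucine zipper and read DNA through a basic region. Proteins of the Jun family can pair with themselves or with proteins of the Fos family, whereas Fos proteins need a Jun partner, and ATF3 is a related bZIP factor that pairs with Jun proteins and is induced by many kinds of stress. Several of these genes, above all FOS, are immediate early genes: serum, growth factors and handling of cells switch them on within minutes through kinase cascades, and their mRNAs are short-lived. The 8 genes described here are the 4 Fos genes FOS, FOSB, FOSL1 and FOSL2, the 3 Jun genes JUN, JUNB and JUND, and ATF3. All 8 were listed in both gene tables, which hold 28806 genes for HCT-116 and 29551 for HepG2. They were chosen by name, with the low values of some of them in fixed cells already known from these data, so those values are given as a description.

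The cells were sequenced singly with Smart-seq2, a plate method that turns polyadenylated RNA into cDNA along its whole length. HCT-116 cells derive from a human colon tumour, and the name HepG2 stands for a line from a human liver tumour. Both were grown with serum, detached with trypsin and divided. A part was sorted alive, and a part was held in 80% methanol for 1 week before its libraries were made. The authors describe staining with propidium iodide before sorting for live cells, and rehydration and washing for fixed cells. Fixation, this handling and library batch thus cannot be told apart. The tables hold 91 live and 92 fixed cells of HCT-116, and 68 live and 83 fixed cells of HepG2. Each labelled sample is 1 cell and no label names a culture, so each line and treatment counted as 1 sample. HepG2 cells came from more than 1 experiment and the labels do not say which cell came from which, whereas HCT-116 was done once. Cells were not used as replicates, no test was run, and every SD is over cells. The median of total reads per cell, in units of 1e6 reads, was 2.5 for live and 1.8 for fixed cells of HCT-116, and 2.4 and 2 for those of HepG2.

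A few columns stood apart. In HepG2, 1 column deposited as live and 1 deposited as fixed held the same value for every gene, with FOS at 36.2 TPM (a level scaled for transcript length and for the total of the cell) and JUN, FOSB and ATF3 at 0. A further 6 fixed HepG2 columns were very similar to one another (Pearson r from 0.956 to 0.973). The counts of members lower in fixed than in live cells, given below, were the same without either set. Not every other count was recomputed without them.

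Marker genes were read first, to check the labels. In the cells labelled HepG2, 0 of the 8 tabled hepatocyte markers, of 15 listed, exceeded 1 TPM in at least 50% of live cells, and the most abundant, SERPINA1, averaged 2.27 TPM. The same cells expressed 9 of 10 luminal breast markers above that level, with KRT19 at 2306 TPM, GATA3 at 216 ± 118.9 TPM and the estrogen receptor gene ESR1 at 47.7 ± 22.6 TPM (SD, n = 68 cells). The markers thus went against the label, and HepG2 is used below only as the name the labels give. In live HCT-116 cells 1 of 6 tabled intestinal markers passed that level, CDX2, at 7.47 TPM, and 2 of 8 tabled luminal breast markers did, with KRT19 at 952 TPM, so KRT19 alone does not tell the lines apart. In live HepG2 cells the most abundant intestinal marker was CEACAM5 at 7.32 TPM. No blood or fibroblast marker passed it in any group, and in live cells their most abundant genes, HBA1 and COL1A1, stayed at 2.10 TPM or less. In fixed HepG2 cells the fibroblast marker LUM averaged 5.56 TPM and CEACAM5 24.7 TPM, and the part of such transcripts in the results was not tested.

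The promoters of FOS, FOSB, JUNB and JUN are shown because these members were low in the fixed cells of both lines, and that of JUND is shown for a member that was not low. Each is the 140 bases before the RefSeq transcription start on the gene's own strand (GRCh38.p14). Capitals mark TGACG, which is a short site for CREB and ATF factors, TGACATCA, a variant AP-1 site, and TATAAA, the TATA box, all searched on both strands.
FOS, chr14:75278688-75278827, plus strand: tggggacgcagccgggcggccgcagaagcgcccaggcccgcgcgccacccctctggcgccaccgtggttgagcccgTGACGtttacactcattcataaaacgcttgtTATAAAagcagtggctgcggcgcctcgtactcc
FOSB, chr19:45467856-45467995, plus strand: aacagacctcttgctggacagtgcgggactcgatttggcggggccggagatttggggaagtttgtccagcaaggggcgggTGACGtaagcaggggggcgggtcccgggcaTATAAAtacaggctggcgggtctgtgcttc
JUNB, chr19:12791346-12791485, plus strand: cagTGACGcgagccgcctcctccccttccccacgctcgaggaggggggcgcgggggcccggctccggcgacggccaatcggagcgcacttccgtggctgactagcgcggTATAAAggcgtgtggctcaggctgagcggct
JUN, chr1:58784048-58784187, minus strand: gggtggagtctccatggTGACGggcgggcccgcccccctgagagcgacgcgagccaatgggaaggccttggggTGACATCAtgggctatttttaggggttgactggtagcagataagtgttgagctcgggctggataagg
JUND, chr19:18281623-18281762, minus strand: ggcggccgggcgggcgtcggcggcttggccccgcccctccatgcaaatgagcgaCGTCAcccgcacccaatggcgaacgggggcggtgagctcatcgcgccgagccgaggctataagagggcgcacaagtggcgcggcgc

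FOS and FOSB carried TGACG and TATAAA at nearly the same places. TGACG began 64 bases before the start in FOS and 60 in FOSB, and TATAAA 33 and 30 bases before it. JUNB had TATAAA at 31 bases and TGACG near the far end of the window. JUN had TGACATCA at 67 bases and TGACG farther upstream, with no TATAAA. JUND had TGACG on the other strand, at 86 bases, and FOSL2 had it at 66. Among 35116 RefSeq promoter windows of this length, 14.7% held TGACG, 6.34% TATAAA and 1.89% TGACATCA. The classical AP-1 site TGANTCA was in 3.92% of all windows and in none of the members' windows. A match of letters is not a bound site, and the promoter tables gave no FOSL1 window. For ATF3, the windows given do not lie at the start of its reference transcript and are not shown.

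At the other end of the mRNA, AU-rich elements in the 3′ UTR are known to speed decay of immediate early transcripts. The core TATTTAT was in the 3′ UTR of the reference (MANE Select) transcript of 7 of the 8 members, JUNB being the exception, against 31.6% of 19061 such transcripts. The FOS 3′ UTR held 2 cores and 5 copies of ATTTA in 806 bases, or 6.20 copies per kilobase, against a median of 1.55 over all transcripts. Of the other members that were lower in fixed cells of at least 1 line, JUNB held 4 copies per kilobase, ATF3 2.46, JUN 2.34 and FOSB 1.38. Of those that were not, FOSL2 held 1.85, with as many cores as FOS and 9 copies in a longer 3′ UTR, JUND 1.34 and FOSL1 1.19, the last with 1 copy in 837 bases. Whether these letters bear on the levels was not tested. The first core of FOS and of FOSL1 is shown as an example of each. Capitals mark TATTTAT.
FOS, chr14:75282060-75282088, plus strand: tgtttttaattTATTTATtaagatggatt
FOSL1, chr11:65892272-65892300, minus strand: agggcagctgcTATTTATtttcctaaaga

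The first comparison asked how the level of each gene in methanol-fixed cells compared with that in live cells of the same line. In both lines FOS, FOSB, JUN and JUNB were lower after fixation, by 1 or more in the mean of log2(TPM + 1), and ATF3 was lower by that much in HepG2. FOSL1, FOSL2 and JUND stayed within 0.18 of the live level on that scale in both lines. In HCT-116, 4 of 8 members were thus lower, where 4.18% of 18290 genes were, and in HepG2 5 of 8 were lower, where 3.47% of 20222 genes were. No member was higher by 1 or more (0.109% and 0.677% of genes were). All 8 members passed the filter on low values, a TPM above 0 in at least 10% of the cells of a line. The median difference over the members was −0.82 in HCT-116 and −1.51 in HepG2, beside −0.02 and −0.03 over all genes compared. Since the members were named with these values known, their count says nothing about other bZIP genes.

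**Figure D1:**
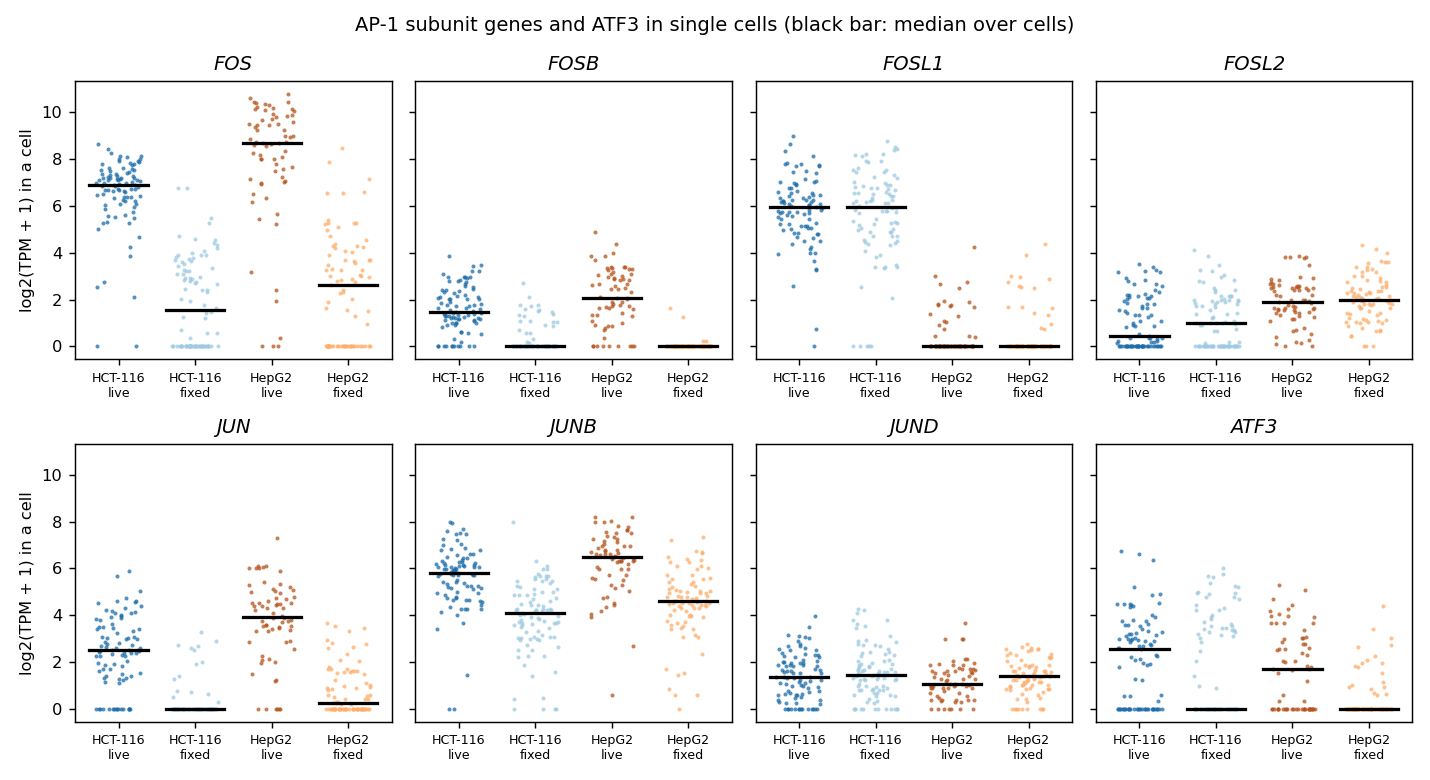
Level of each of the 8 genes in every cell, as log2(TPM + 1) on the vertical axis, for live and fixed cells of HCT-116 and HepG2 (1 point per cell, black bar at the median). FOS sits at medians of 115.97 and 412 TPM in live cells and at 1.95 and 5.06 TPM in fixed cells, whereas FOSL1, FOSL2 and JUND have similar clouds in live and fixed cells of a line.

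FOS encodes c-Fos, the founding Fos protein (GRCh38 chr14:75278828-75282230, plus strand, 4 exons). In live HCT-116 cells FOS ranged from 0 to 391 TPM with a median of 115.97 TPM. In fixed HCT-116 cells it ranged from 0 to 107.7 TPM with a median of 1.95 TPM. No fixed cell reached the live median, and 2 of 92 exceeded the lower quartile of live cells, 72.9 TPM. In live HepG2 cells FOS ranged from 0 to 1760 TPM with a median of 412 TPM. In fixed HepG2 cells the range was 0 to 357 TPM and the median 5.06 TPM, and again no fixed cell reached the live median. The mean went from 127.2 ± 79.8 to 7.89 ± 16.9 TPM in HCT-116, a 16.1-fold lower level in fixed cells. In HepG2 it went from 531 ± 459 to 19.7 ± 50.6 TPM, which is 26.99-fold lower. On the log2(TPM + 1) scale the differences were −4.70 and −5.48. On that scale FOS had the lowest difference of all 20222 genes compared in HepG2. In HCT-116 it had rank 2 from the lowest of 18290, after the microRNA gene MIR5047. The order depended on the scale. With the log2 ratio of mean TPM, FOS was at −4.75 and FOSB at −6.75 in HepG2. In HCT-116 FOS was then at −4.01 and JUN at −3.95. The FOS that remained was carried by few cells: the 8 highest of 83 fixed HepG2 cells held 66.7% of the FOS of that group, against 27.6% in the 7 highest of 68 live cells. The highest fixed HepG2 cell had 357 TPM of FOS but 0.350 TPM of JUN and no FOSB, while the highest live cell had 1760 TPM of FOS with 155.1 TPM of JUN and 28.7 TPM of FOSB.

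FOSB, a paralog of FOS that gives a long and a short splice form (chr19:45467996-45475179, plus strand), was far less abundant than FOS. It had a median of 1.76 TPM in live HCT-116 cells (0 to 13.4 TPM) and of 3.21 TPM in live HepG2 cells (0 to 28.7 TPM). In fixed cells both medians were 0, with maxima of 5.58 and 2.09 TPM. Mean levels went from 2.77 to 0.392 TPM and from 4.96 to 0.0461 TPM, log2 differences of −1.28 and −2.05. The deposited transcript values go further than the gene values here. The 2 curated RefSeq forms, NM_001114171.1 and NM_006732.2, made up 41.7% and 58.3% of the CPM (estimated reads, scaled to equal totals among cells) of curated FOSB transcripts in live HCT-116 cells, and 40.2% and 59.8% in live HepG2 cells. Neither had as much as 0.5 estimated read in any fixed cell, 0 of 92 and 0 of 83, which allows shares of up to 3.26% and 3.61% of cells, taken as 3 counts of the total. The gene value of the 24 and 4 fixed cells above 0 went with a predicted transcript, XM_005258691.1, that had reads in each of those cells. Live cells held such cases too: 43 of 80 HCT-116 and 22 of 59 HepG2 cells with FOSB above 0 had no 0.5 read of the curated forms, and all of them had reads of XM_005258691.1. It had a mean of 3.67 CPM in live HCT-116 and 8.07 CPM in live HepG2 cells, beside 3.79 and 7.66 CPM for the curated forms together. The reference tables used here do not pair that transcript with FOSB. The FOSB gene values, and the differences, shares and correlations drawn from them, may thus include reads of another model. That transcript was looked up after the values were seen, and how well reads can be divided among the FOSB models was not tested.

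FOSL1 encodes FRA-1, a Fos protein often high in carcinoma cells (chr11:65892049-65900388, minus strand). It was mainly found in 1 line: the median was 61.3 TPM in live HCT-116 cells (0 to 501 TPM) and 0 in live HepG2 cells (0 to 17.9 TPM). In fixed HCT-116 cells the median was 61.6 TPM (0 to 429 TPM) and in fixed HepG2 cells it was 0 (0 to 19.6 TPM). Live and fixed cells overlapped almost fully, with 47 of 92 fixed HCT-116 cells above the live median. The log2 differences were −0.17 and −0.07. The transcript NM_005438.4 held 87.8% of FOSL1 CPM in HCT-116 when live and 87.2% when fixed. FOSL2, which encodes FRA-2 (chr2:28392858-28417317, plus strand), had a median of 0.364 TPM in HCT-116 cells that were live and of 0.971 TPM in those that were fixed. In HepG2 the medians were 2.73 and 2.97 TPM, and the log2 differences were 0.07 and 0.12.

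JUN encodes c-Jun, the partner that lets Fos proteins bind DNA (chr1:58780791-58784047, minus strand, 1 exon). Its median was 4.71 TPM in live HCT-116 cells (0 to 57.9 TPM) and 0 in fixed ones (0 to 8.74 TPM). In HepG2 the median was 14.4 TPM in live cells (0 to 155.1 TPM) and 0.189 TPM in fixed ones (0 to 11.8 TPM). Mean levels were 15.5-fold and 15.6-fold lower in fixed cells, and the log2 differences were −2.15 and −2.95. No fixed HepG2 cell exceeded the live median, and 6 of 92 fixed HCT-116 cells did. Reads for JUN in HCT-116 averaged 45 per live cell and 2.88 per fixed cell, so a TPM of 0 in a fixed cell means that no read was assigned and does not show that JUN mRNA was absent.

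JUNB (chr19:12791486-12793315, plus strand, 1 exon) encodes a Jun protein that can hold back c-Jun activity. It was lower in fixed cells but kept a clear level. The median went from 54.2 TPM (0 to 249.2 TPM) to 16.1 TPM (0 to 251 TPM) in HCT-116, and from 88.1 TPM (0.526 to 296 TPM) to 23.5 TPM (0 to 163.3 TPM) in HepG2. Mean levels were 2.90-fold and 3.09-fold lower, and the log2 differences, −1.71 and −1.75, were nearly the same in the 2 lines. Live and fixed cells overlapped more than for FOS, with 5 of 92 and 6 of 83 fixed cells above the live median. The kit does not mark strand and an exon of HOOK2 overlaps JUNB, so reads of the pair could not be told apart there. JUND (chr19:18279694-18281622, minus strand, 1 exon), a Jun gene known for its constitutive expression, had the highest GC content of the members, 69.9% of its reference transcript. Its median in HCT-116 was 1.56 TPM when live and 1.76 TPM when fixed, and in HepG2 1.09 and 1.63 TPM. The log2 differences were 0.16 and 0.18.

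ATF3 (chr1:212608761-212620775, plus strand) had unlike values in the 2 lines, a difference that was not tested. In HCT-116 the median went from 4.92 TPM (0 to 105.04 TPM) to 0 (0 to 63.7 TPM), yet the mean was 9.17 ± 17.6 in live and 8.74 ± 14.1 TPM in fixed cells. Fewer fixed cells had any ATF3, 42 of 92 against 61 of 91, and those that did had a higher median, 12.8 against 7.29 TPM. The log2 difference was −0.36. In HepG2 the median went from 2.28 TPM (0 to 38.1 TPM) to 0 (0 to 19.9 TPM), the mean from 5.39 to 0.892 TPM, and the log2 difference was −1.27. The transcripts differed too. NM_001674.3 held 66.9% of ATF3 CPM in HCT-116 cells when live and 73.4% when fixed, but 8.09% in live HepG2 cells. There, NM_001030287.3 held 43.6% and NM_001206486.2 held 39.1%. NM_001206486.2 had reads in 25 of 68 live HepG2 cells and in 0 of 83 fixed ones.

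**Figure D2:**
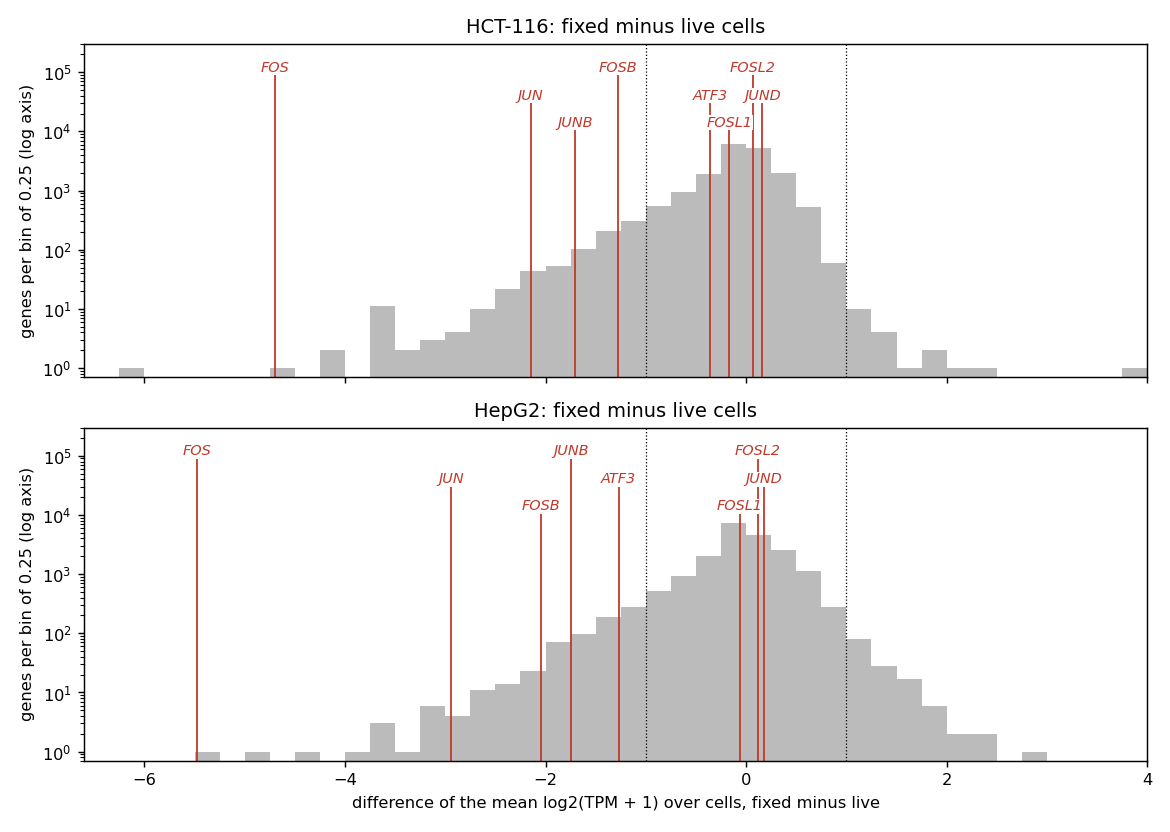
Number of genes (vertical log axis) by the difference of the mean log2(TPM + 1) between fixed and live cells (horizontal axis, bins of 0.25), for HCT-116 above and HepG2 below, with the members marked by red lines and dotted lines at −1 and 1. FOS stands at −4.70 and −5.48 in the far left tail, JUN, JUNB and FOSB between −1.28 and −2.95, and FOSL1, FOSL2 and JUND in the central peak.

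Some measures of the libraries moved with treatment. Ribosomal RNA genes in HCT-116 took a median of 24.6% of the TPM of live cells and 7.60% of that of fixed cells. In HepG2 they took 5.72% and 2.39%. The median number of genes detected per cell was 12031 in live and 10359 in fixed cells of HCT-116, and 13887 and 12293 in HepG2. Its part in the shares of cells with a gene detected was not tested. With ribosomal RNA genes left out and the others rescaled, the same counts of members were lower, 4 and 5, and the median member differences were −1.05 and −1.66. With cells paired on total reads, 53 pairs in HCT-116 and 38 in HepG2, the counts were again 4 and 5. Within groups, the rank correlation of each member with the number of genes detected lay between −0.13 and 0.32.

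The share of cells in which a gene was detected (TPM above 0) was also compared. FOS was detected in 97.8% of live HCT-116 cells (95% exact Clopper-Pearson interval 92.3 to 99.7) and in 58.7% of fixed ones (47.9 to 68.9). In HepG2 the shares were 95.6% (87.6 to 99.1) and 62.7% (51.3 to 73.03). These intervals cover counting error only. At 500000 reads per cell the expected shares with at least 1 FOS read were 97.7%, 53.3%, 94.3% and 60.8% in the same order, with 3 of 92 fixed HCT-116 cells left out as too shallow. JUN was detected in 82.4% of live HCT-116 cells and 16.3% of fixed ones, and in 91.2% and 54.2% of HepG2 cells. JUNB stayed above 95% in all groups although its means were lower in fixed cells, and ATF3 in HCT-116 went from 67.03% to 45.7% with nearly equal means. FOSL2 was found in 61.5% and 59.8% of HCT-116 cells and in 97.1% and 96.4% of HepG2 cells, and JUND in 84.6%, 86.96%, 89.7% and 89.2%. FOSL1 was found in 98.9% and 94.6% of HCT-116 cells but in 30.9% and 20.5% of HepG2 cells.

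Members were often present together in live cells. FOS, FOSB, JUN and JUNB all exceeded 1 TPM in 58 of 91 live HCT-116 cells (63.7%) and in 50 of 68 live HepG2 cells (73.5%). No fixed cell had all 4 above that level, 0 of 92 and 0 of 83, which allows up to 3.26% and 3.61% on the same basis of 3 counts. From the share of each gene alone, taken as independent, 55.2 and 44 live cells and 0.884 and 0.381 fixed cells would have all 4, so the counts in fixed cells add little to the shares. JUNB was the only 1 of these 4 above 1 TPM in 31.5% of fixed HCT-116 and 24.1% of fixed HepG2 cells, against 0 and 2.94% of live cells. Of the 8 members, an HCT-116 cell had on average 6.21 ± 1.22 above 1 TPM when live and 4.26 ± 1.21 when fixed. In HepG2 the numbers were 5.78 ± 1.41 and 3.82 ± 1.24.

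The order of levels changed with treatment. In HCT-116 the members summed to 302 ± 132.98 TPM per live cell and 136.7 ± 110.8 TPM per fixed cell. In HepG2 the sums were 674 ± 534 and 62.7 ± 62.9 TPM. FOS made up 42.2% of that sum in live HCT-116 cells, and FOSL1 66.9% in fixed ones. FOS was the most abundant member in 53 of 91 live HCT-116 cells and in 0 of 92 fixed ones, where FOSL1 led in 69. In HepG2, FOS made up 78.9% of the sum in live cells and JUNB 53.6% in fixed cells, where JUNB led in 63 of 83 cells. By mean log2 level, the live HCT-116 order was FOS, FOSL1, JUNB, JUN, ATF3, FOSB, JUND and FOSL2. Only the step from JUNB to JUN, 3.17 on the log2 scale, exceeded the SD over cells of the difference between neighbours, 2.01. In live HepG2 cells the order was FOS, JUNB, JUN, FOSB, FOSL2, ATF3, JUND and FOSL1, and the steps from JUNB to JUN (2.53) and from JUN to FOSB (1.66) exceeded theirs. In fixed cells of either line, no neighbours in the order differed beyond their spread.

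The lines were compared with each other next, live with live and fixed with fixed. FOSL1 was lower in live HepG2 than in live HCT-116 cells, with a difference of −5.28 on the log2 scale, and no HepG2 cell reached the lower quartile of HCT-116 cells. It was the only member lower by 1 or more, where 8.47% of 20319 genes were. FOS and JUN were higher in live HepG2 cells by 1.37 and 1.31, 2 of 8 members where 9.96% of genes were higher. In 41 pairs of live cells with the same total reads, the FOS and JUN differences were 0.86 and 0.99, and no member was then higher by 1 or more, while FOSL1 was at −5.25. In 36 of 68 live HepG2 cells FOS exceeded the highest HCT-116 cell. Among fixed cells FOSL1 (−5.18) and ATF3 (−1.33) were lower in HepG2, 2 of 8 members where 7.61% of genes were lower, and no member was higher by 1 or more (11.9% of genes were). The FOS and JUN differences between the fixed groups were 0.58 and 0.51. The tables of the lines were made separately.

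Cell-to-cell variation was measured by the coefficient of variation, CV, the SD over cells divided by the mean TPM. The CV was higher in fixed than in live cells for 7 of 8 members in each line, ATF3 being the exception in HCT-116 and JUND in HepG2, where 81.9% and 72.8% of all genes compared had a higher CV in fixed cells. The members' share was thus close to the background. With median-ratio rescaling, 6 members had a higher CV in fixed HepG2 cells. In HCT-116 the members had a median CV of 1.05 when live and 1.56 when fixed, beside 1.27 and 1.57 over all genes. In HepG2 it was 1.08 and 2.19, beside 1.20 and 1.48. FOS had a higher CV than most genes of like level. In live HepG2 cells it was 0.864, against a median of 0.380 over the 778 genes with a mean of 100 to 1000 TPM. In fixed HepG2 cells it was 2.57, against 0.626 over the genes with a mean of 10 to 100 TPM, 98.9% of which had a lower CV. FOSL1 in HCT-116 had a CV of 1.00 when live and 1.03 when fixed, against 0.583 and 0.696 for its band. JUND and FOSL2 in HepG2 were near or under their bands, with CVs of 0.776 and 0.918 in fixed cells against 1.25.

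**Figure D3:**
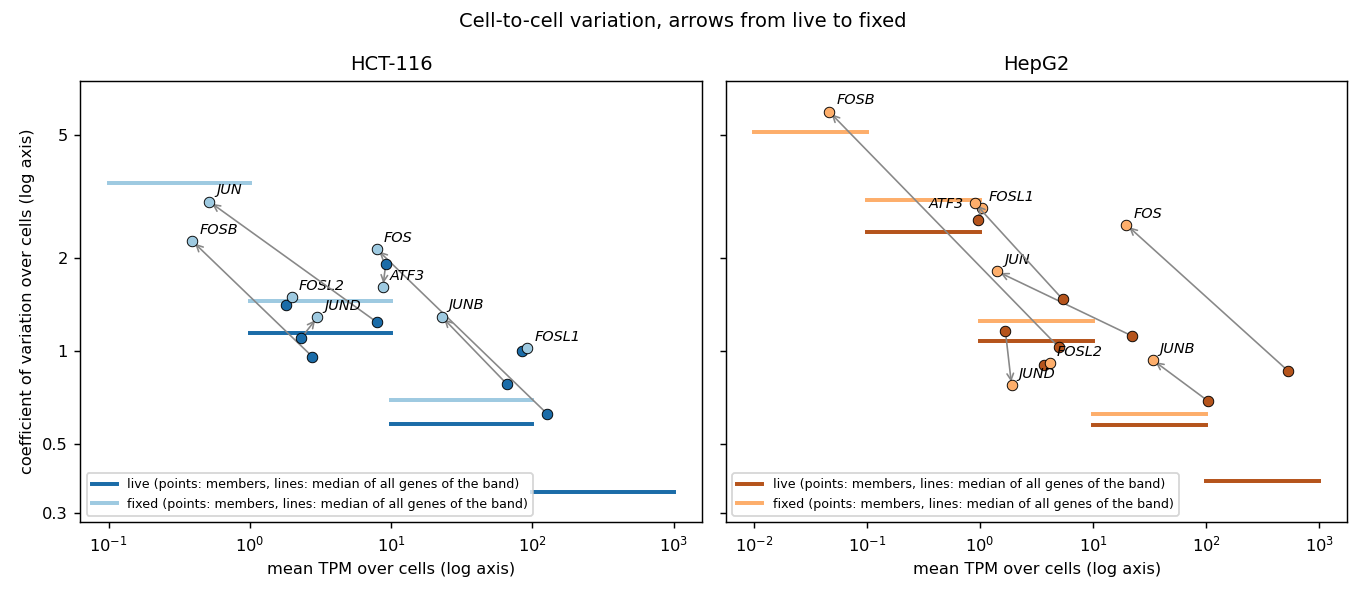
Coefficient of variation over cells against mean TPM (both log axes) for each member in live (dark points) and fixed cells (light points), joined by an arrow from live to fixed, with horizontal lines at the median CV of all genes of each band of mean TPM. FOS in HepG2 moves from 0.864 at 531 TPM to 2.57 at 19.7 TPM, above the lines of both bands, whereas FOSL1 and FOSL2 hardly move.

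Co-variation was measured by the Spearman rank correlation between the levels of a pair of members over the cells of a group, for all 28 pairs. The cells of a group share plates, library preparation and, in HepG2, an unknown mix of experiments, so the values describe these cells only. In live HepG2 cells FOS, FOSB, JUN and JUNB were high in the same cells and low in the same cells. The rank correlation was 0.84 for FOS and FOSB, 0.77 for FOS and JUN, 0.77 for FOSB and JUN, 0.59 for FOS and JUNB and 0.59 for JUN and JUNB (n = 68 cells). The pairs of FOSB with JUNB, 0.54, and of JUN with ATF3, 0.54, were also above 0.5, which made 7 of 28 pairs, against 0.375% of all pairs of genes detected in at least 50% of these cells. FOSL1, FOSL2 and JUND had no such partner. With Pearson r on log2(TPM + 1), FOS and JUNB were at 0.49 in these cells and 6 pairs exceeded 0.5. In live HCT-116 cells the pattern was weaker, with 0.50 for FOS and FOSB, 0.30 for FOS and JUNB and 0.14 for FOS and JUN (n = 91 cells). In fixed cells no pair exceeded 0.29 in HCT-116 or 0.26 in HepG2, and FOS and FOSB were at 0.04 and 0.01. FOS and JUNB were at 0.02 in fixed HCT-116 and 0.13 in fixed HepG2 cells. FOSB was above 0 in 24 of 92 fixed HCT-116 and 4 of 83 fixed HepG2 cells, and JUN in 15 and 45. The part of zeros in the low correlations was not tested. Medians over the 28 pairs were 0.06 (live) and 0.08 (fixed) in HCT-116 and 0.10 and 0.12 in HepG2. Over pairs of genes found in 50% or more of a group they were 0.03, 0.03, 0.05 and 0.05. Some members did not meet that limit. Under the alternatives tried, the HepG2 median lay between 0.07 and 0.14 in live cells and between 0.06 and 0.12 in fixed cells. The rank correlation of each member with the number of genes detected lay between −0.13 and 0.25 in live HepG2 cells. In fixed HepG2 cells it lay between 0.14 and 0.32.

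**Figure D4:**
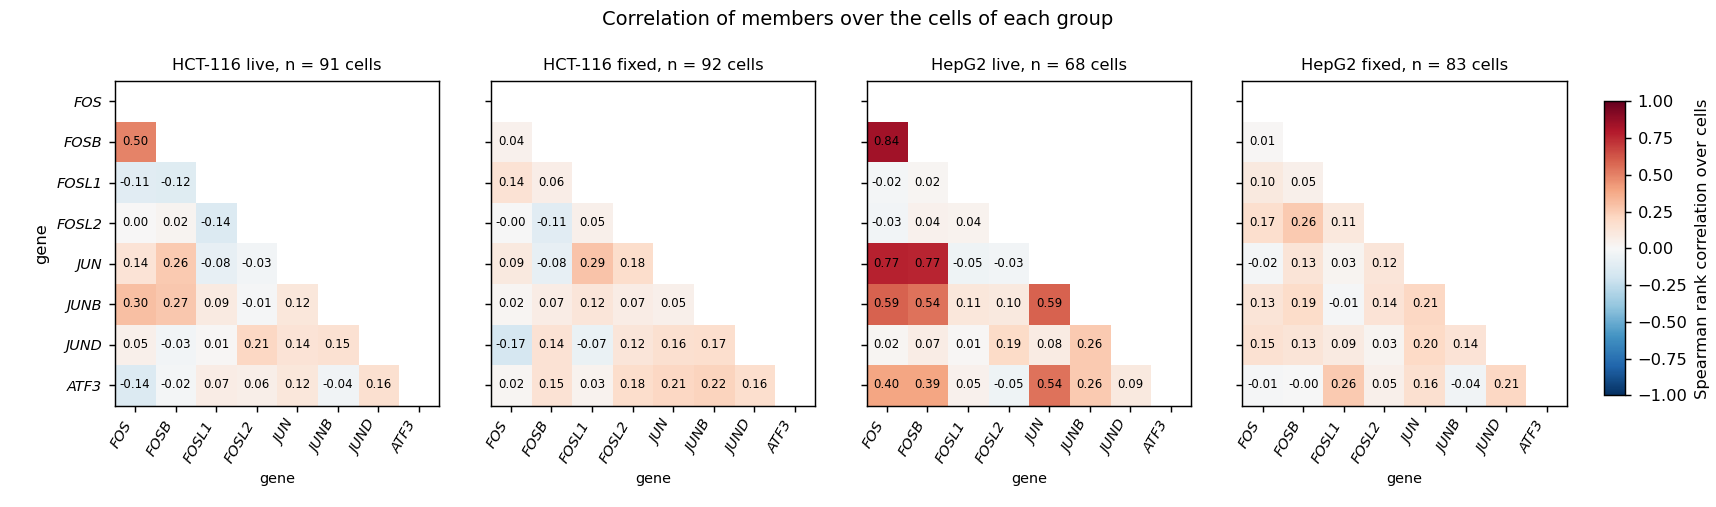
The Spearman rank correlation over the cells of a group for each of the 28 pairs of members (rows and columns are genes, the colour scale runs from −1 to 1, the value is printed in each square). The block of FOS, FOSB, JUN and JUNB is at 0.54 to 0.84 in live HepG2 cells, reaches 0.50 in live HCT-116 cells, and is not seen in the fixed groups.

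**Figure D5:**
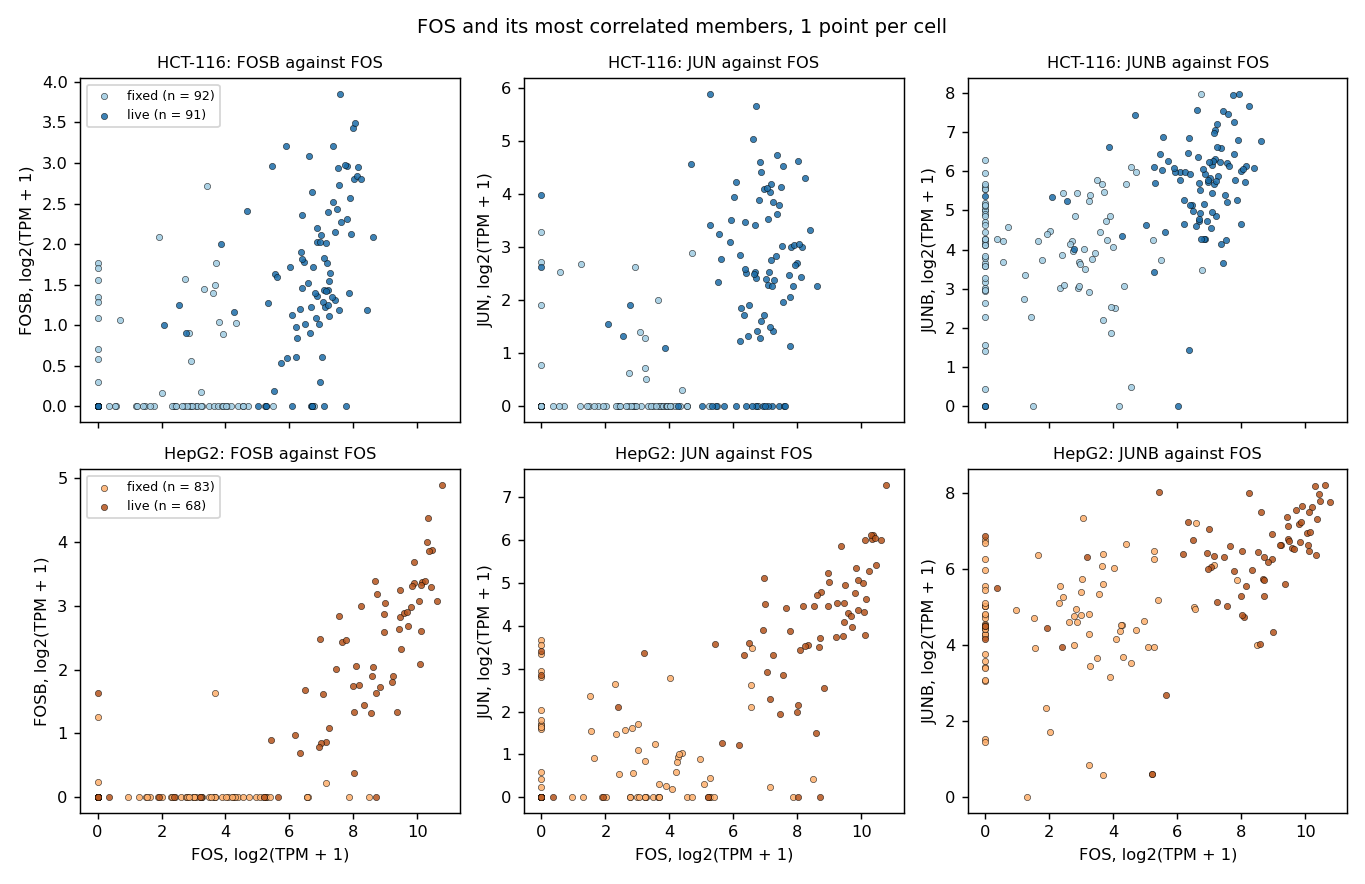
FOSB, JUN and JUNB against FOS, all as log2(TPM + 1), with 1 point per cell, for HCT-116 above and HepG2 below and live (dark) and fixed cells (light). In live HepG2 cells the points rise along a diagonal, while fixed cells lie to the left, with FOSB at 0 in 79 of 83 HepG2 cells.

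Genes that varied most like each member were sought among 10372 genes detected in at least 50% of the live cells of both lines, by the mean rank correlation over the 2 live groups. For FOS these were FOSB (0.67), EGR1 (0.59), an immediate early zinc finger factor, and DUSP1 (0.52), a phosphatase that switches off MAP kinases. For FOSB they were FOS, JUN (0.51) and EGR1 (0.51). For JUN they were FOSB, FOS (0.45) and TMC4 (0.44). JUNB was nearest to IER2 (0.59), another immediate early gene, EGR1 (0.56) and FOS (0.45). ATF3 was nearest to CYR61 (0.43), a matricellular growth factor gene, JUN (0.33) and OPTN (0.32). The means joined unlike lines: JUN and FOS were at 0.14 in HCT-116 and 0.77 in HepG2, ATF3 and CYR61 at 0.21 and 0.65, and FOS and EGR1 at 0.38 and 0.80. FOSL2 and JUND had weak neighbours, GPR63, STARD4 and C9orf40 for FOSL2 (0.38 to 0.31) and NPIPA7, SIX4 and LOC101928421 for JUND, all at 0.29. FOSL1 was not searched, since fewer than 50% of live HepG2 cells had it. In fixed cells JUNB and IER2 had a rank correlation of 0.14 in HCT-116 and 0.55 in HepG2, FOS and EGR1 had 0.31 and 0.29, and FOS and DUSP1 had 0.01 and −0.01. EGR1 averaged 25.6 and 37.6 TPM in live HCT-116 and HepG2 cells and 13.5 and 6.62 TPM in fixed ones, and IER2 139.3 and 133.2 TPM in live and 37.9 and 16.1 TPM in fixed cells.

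Other genes of the pathway were read from lists, beside 4.18% of all genes lower and 0.109% higher in HCT-116 and 3.47% and 0.677% in HepG2. Among 24 other bZIP genes that can pair with AP-1 proteins, 21 passed the filter in HCT-116, of which MAFF was lower by 1 or more (−1.93) and DDIT3, the stress factor CHOP, higher (1.28). In HepG2 none of 23 passed 1 in either direction, but MAFF, at −0.36 with means of 0.832 TPM (live) and 0.166 TPM (fixed), was at −2.33 with the log2 ratio of mean TPM. Of 22 upstream kinases and factors, HRAS (−1.06) and ELK1 (−1.03) were lower in HCT-116 and none in HepG2, where ELK1 was at −0.96. With the log2 ratio of mean TPM, HRAS (−0.47) and ELK1 (−0.69) in HCT-116 did not pass. Of 13 feedback phosphatases and inhibitors, DUSP1 was lower in both lines. Its mean went from 41.1 to 14.2 TPM in HCT-116 and from 122.4 to 11.5 TPM in HepG2, log2 differences of −2.18 and −3.83. DUSP2 was lower in HCT-116 (−1.22), and just missed the threshold with the log2 ratio of mean TPM. Of 12 genes for decay through AU-rich elements, none was lower and CNOT1, a subunit of the deadenylase complex, was at the threshold in HepG2 (1.00) and under it in 4 of 7 alternatives, the lowest being 0.87. Of 23 genes known as AP-1 targets, 16 passed the filter in HCT-116, where LIF was lower (−1.30), and 15 in HepG2, where TIMP1 was higher (1.35). The list medians lay between −0.13 and 0.32, beside −0.02 and −0.03 over all genes of the 2 lines. Apart from DUSP1, the genes named from these lists were picked after their values were seen.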

How the data were processed

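Reads of single cells were quantified by the authors with kallisto 0.46.0 on GRCh38 and summed to genes with tximport. The deposited gene values are TPM, whose listed genes sum to a median of 99.3% and 99.1% of the full TPM total in live and fixed HCT-116 cells and of 89.5% and 96.1% in HepG2. The deposited transcript values are CPM by their steps, with total reads known to the nearest step of 0.1 (in units of 1e6 reads). Of the labelled cells, 12 have no column and were not analysed here: 4 fixed HCT-116, 7 fixed HepG2 and 1 live HepG2. The authors kept only cells above a set number of genes detected. Their cell numbers, 183 for HCT-116 and 151 for HepG2, equal the columns used here. Shares of cells with a gene detected are thus over cells already chosen by detection. Levels were compared as the mean of log2(TPM + 1), with a pseudocount of 1, and a difference of 1 was the threshold for lower or higher. No model was fitted, and levels were compared over genes with a TPM above 0 in at least 10% of the cells compared. Members and lists were chosen with earlier results of these data known. The genes named by rule are the 8 members, list genes past the threshold in the same direction in both lines, the 3 nearest genes of each member searched and the most abundant marker of each list. Other list genes and markers named were picked after their values were seen. Intervals are exact at 95%, and limits for a count of 0 are 3 counts over the number of cells. Sequences come from RefSeq promoters (GRCh38.p14) and GENCODE 44 on GRCh38, and each was checked against the genome. Alternatives were the pseudocount, the scaling, the measure, the columns and the depth. The computations were tested on simulated data. The work used Python 3.11.15, numpy 2.4.6, pandas 2.3.3, scipy 1.17.1 and matplotlib 3.10.9.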

Additional observations from a re-analysis of the deposited data

How the results depend on the processing

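The 2 counts of members lower in fixed cells, 4 in HCT-116 and 5 in HepG2, were the same under all alternatives tried, and no value for a member, count or listed gene past its threshold turned direction. Of 80 recomputed summary values 74 stayed within their tolerance. The exceptions were the median member difference with a pseudocount of 0.1, −1.42 in HCT-116 and −2.14 in HepG2, and with the log2 ratio of mean TPM in HepG2, −2.11. The others were the number of members higher in live HepG2 than in live HCT-116 cells with cells paired on total reads, 0 in place of 2, and the number of pairs with a correlation above 0.5 in live HCT-116 cells, 1 in place of 0 with a partial correlation on genes detected and with median-ratio rescaling. The pair was FOS and FOSB, at 0.50 and 0.53. Among single genes and pairs 304 values stayed within tolerance and 33 did not, all with the pseudocount of 0.1, the ratio of means or, for 3 pairs, Pearson r. FOSB went from −1.28 to −3.08 with the pseudocount in HCT-116 and from −2.05 to −6.75 with the ratio in HepG2, JUN from −2.15 to −4.25 with the pseudocount in HCT-116, and ATF3 from −1.27 to −2.60 with the ratio in HepG2. The number higher in live HepG2 cells was 3 with a pseudocount of 0.1 and with the ratio of means. The median over all genes moved by more than 0.1 with the pseudocount of 0.1 (to −0.15 in both lines) and, in HCT-116, with the ratio of means (to 0.11). Between live cells of the lines it moved from 0.07 to 0.27 and 0.29 under the same alternatives. In HepG2, CNOT1 passed 1 with a pseudocount of 0.1, with the ratio of means and without equal columns, and not under the other alternatives. ELK1 in HepG2 passed −1 with either rescaling and with a pseudocount of 0.1, and HRAS, ELK1 and DUSP2 in HCT-116 did not with the ratio of means, nor did ELK1 with cells paired on total reads. MAFF in HepG2 passed −1 only with the ratio of means (−2.33). Leaving out the 6 very similar columns was chosen after seeing the data. The cause of these changes was not tested. No paired analysis was possible because each sample is a different single cell and the live and fixed cells of a line share no replicate numbers. Pairing on total reads matched cells by depth alone. Depth limits the weakest values most. JUN in fixed HCT-116 cells and FOSL1, JUND and, when fixed, ATF3 in HepG2 averaged between 2.54 and 3.19 reads per cell. Curated FOSB had less in fixed cells. For JUND in HepG2 these are reads of the only transcript listed there, NM_001286968.1. In HCT-116 NM_005354.5 was also listed, with equal values, so the HepG2 reads may be only a part of those of JUND. In 6 live and 2 fixed HepG2 cells JUND was above 0 TPM without 0.5 read of the listed transcript.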
